A study of Mus musculus with 2 samples.

Results

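The genes described here encode the subunits of the mitochondrial respiratory chain and of ATP synthase, and they were read in cultured Nestin+ mesenchymal stromal cells from the heart and from the bone marrow of mice. Members were taken by name: rows starting with Nduf plus a, b, c, s or v and a number, Sdha to Sdhd, Uqcr, Cox4 to Cox8, Atp5, mt-Nd, mt-Co, mt-Cytb or mt-Atp, with rows ending in a -ps suffix left out. This gave 97 genes of 49585 gene rows, 84 in the nucleus and 13 in the mitochondrial genome. The name rule also takes Ndufa4l2, Cox7a2l, Atp5s and Atp5sl, which are not regarded as standing subunits, and it places Ndufa4 in complex I although this protein is now assigned to complex IV.

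Heart Nestin+ cells and bone marrow Nestin+ cells came from C57BL/6 mice aged 7 days that carry a Nestin-GFP transgene, which marks cells with an active Nestin regulatory sequence by green fluorescence. Both cultures were at passage 10. The heart cells grew in a mixture of DMEM/F12 and IMDM with N2, B27, 4 ng/ml cardiotrophin-1 and 20 ng/ml each of the growth factors bFGF and EGF, whereas the bone marrow cells grew in a medium known here only by reference to an earlier protocol, so tissue and medium cannot be told apart. Each tissue gave 1 library made from total RNA, so there is no replicate check, and every difference below is one between these 2 libraries.

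Electrons enter the chain at complex I (NADH dehydrogenase) and complex II (succinate dehydrogenase), pass through complex III (the cytochrome bc1 complex) to complex IV (cytochrome c oxidase), and the proton gradient built on the way drives complex V, ATP synthase. Complex II is encoded by nuclear genes alone, while the other complexes join nuclear subunits to a few made inside the mitochondrion. Several complex IV subunits exist as pairs of isoforms, of which one is made in most cells and the other mainly in heart and skeletal muscle, lung or testis.

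Values are RPKM, reads divided by exon length and by library size, and each log2 ratio is log2((heart + 1)/(bone marrow + 1)). A member was called when it differed by at least 2-fold, or at least 1.5-fold, on that scale and reached 5 RPKM in the higher library. Reads recovered from the RPKM values came to 64872683 for the heart library and 53999963 for the bone marrow library. Nuclear members at or above 1 RPKM rested on 203 to 34721 reads in heart and 135 to 46089 in bone marrow where the gene model was matched. The 95% intervals given with ratios are exact conditional (Clopper-Pearson) intervals of those reads and cover counting error only. Of 10 mesenchymal stromal marker genes, 10 reached 1 RPKM in heart cells and 8 in bone marrow cells, where Eng and Thy1 stood below it. Nes itself stood at 8.74 RPKM in heart cells and 1.20 RPKM in bone marrow cells. None of 10 cardiomyocyte, 6 skeletal muscle or 4 endothelial markers reached 1 RPKM in either library. Of 4 brown adipocyte markers, Dio2 stood at 10.3 RPKM in heart and 0.0478 RPKM in bone marrow. The others of that panel were below 1 RPKM in both. Of 7 haematopoietic markers, Cd53 and Lyz2 reached 1 RPKM in both libraries, while Ptprc was listed at 0 in heart and at 0.00469 RPKM in bone marrow.

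Most nuclear subunit genes were slightly lower in heart cells than in bone marrow cells, and few were far apart. Of the 84 nuclear members, 78 reached 1 RPKM in at least 1 library and 75 reached 5 RPKM. The median log2 ratio of the 78 was -0.25, with quartiles of -0.40 and -0.03, beside -0.11 over the 11354 genes of all kinds at or above 1 RPKM. The median of all genes moves with their level, being -0.14 over 6049 genes with at least 5 RPKM in each library and -0.20 over 1836 genes with at least 20 RPKM in each. Of the 78 nuclear members, 60 (76.9%) had a log2 ratio below 0, beside 58.1% of all genes at or above 1 RPKM. The all-gene share was not taken at higher levels, where the all-gene median was lower. Summed over all 84 nuclear members, the level was 3384 RPKM in heart cells and 4060 RPKM in bone marrow cells, a ratio of 0.833. In bulk RNA, fewer cells of a type and less RNA per cell cannot be told apart.

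Calls were few. At 2-fold, 1 of the 88 members at or above 5 RPKM was higher in heart (1.14%, Ndufa4l2), beside 7.56% of the 7659 genes of all kinds at that level. Likewise 1 of 88 was 2-fold higher in bone marrow (1.14%, Uqcr11), beside 9.51% of all genes. At 1.5-fold, 2 of 88 were higher in heart (2.27%, Ndufa4l2 and Ndufa6), beside 13.0% of all genes. At the same fold, 9 of 88 were higher in bone marrow (10.2%), beside 20.4% of all genes. In order of the ratio these 9 were Uqcr11, Atp5d, Ndufs4, Ndufa12, Uqcrq, Atp5g1, Atp5b, Cox6a1 and Ndufa4. The remaining 64 of 75 nuclear members at or above 5 RPKM, and all 13 mitochondrial members, lay within 1.5-fold. The shares called among members lay below those of all genes in both directions, and no test of that difference was made. Under a scaling that sets the median ratio of abundant genes to 0, which adds 0.15 to log2 ratios, Uqcr11 was no longer 2-fold apart, and Atp5b, Atp5g1, Cox6a1 and Ndufa4 lost their 1.5-fold calls, while Ndufv3 and Uqcrh gained calls toward heart. The nuclear median was then -0.11, with 50 of 78 members below 0.

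**Figure D1:**
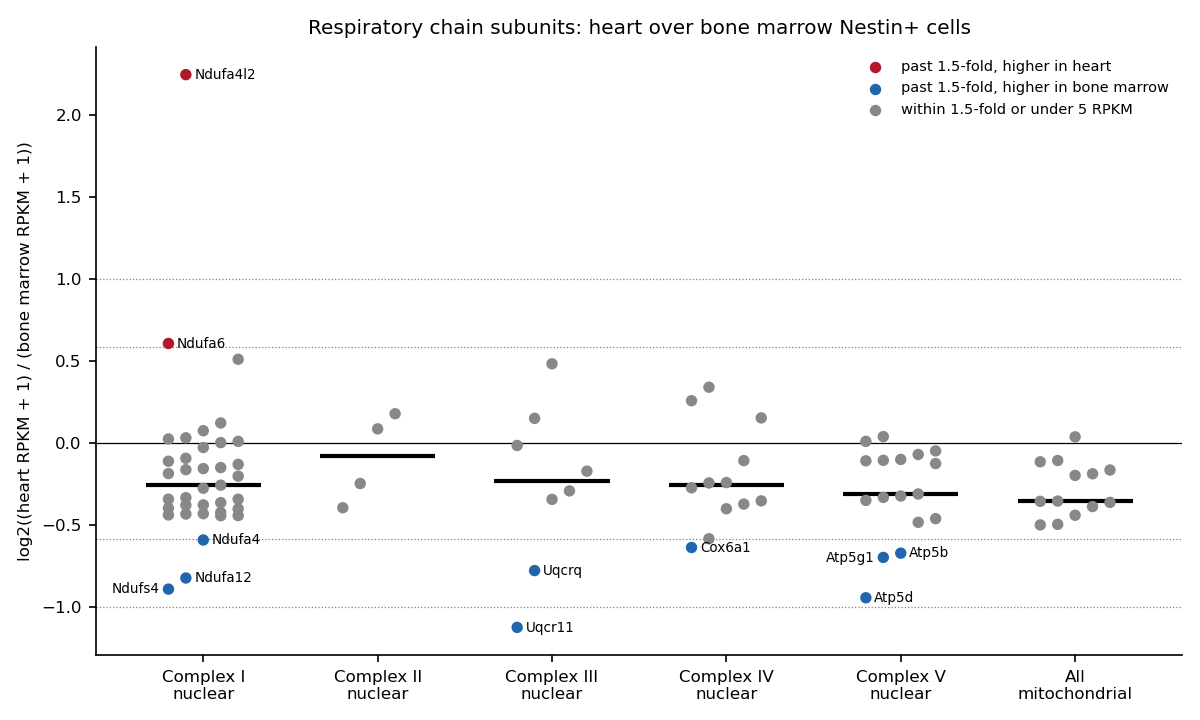
Each point is a member at or above 1 RPKM, placed by complex and genome on the horizontal axis and by log2((heart RPKM + 1)/(bone marrow RPKM + 1)) on the vertical axis, with black bars at group medians and dotted lines at 1.5-fold and 2-fold. Nuclear medians run from -0.31 in complex V to -0.08 in complex II. Without its chromosome 10 members complex V has -0.12, which is the value of Atp5s. Ndufa4l2 stands alone at 2.25, and the mitochondrial genes have a median of -0.35.

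Complex I took in 37 nuclear members, all at or above 5 RPKM in at least 1 library, with a median log2 ratio of -0.25 and 28 of 37 below 0. Its most abundant member was Ndufb9, an accessory subunit of the membrane arm, at 85.0 RPKM in heart and 95.1 RPKM in bone marrow. Core subunits of the peripheral arm, which carry electrons, gave no call at 1.5-fold, and those given here had log2 ratios from -0.43 (Ndufs8) to -0.09 (Ndufs1), with Ndufs7 at -0.27, Ndufv2 at -0.20, Ndufs3 at -0.15 and Ndufv1 at -0.11. Ndufs1, the largest of the iron-sulfur subunits, stood at 16.9 RPKM in heart and 18.0 RPKM in bone marrow, and Ndufv1, which binds the flavin, at 22.7 RPKM in heart and 24.5 RPKM in bone marrow.

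The 5 calls in the complex I group came from 3 accessory subunits, from Ndufa4 and from Ndufa4l2. Ndufs4, whose loss in mice causes a fatal brain disease resembling Leigh syndrome, stood at 12.5 RPKM in heart and 23.9 RPKM in bone marrow, a log2 ratio of -0.89 and a ratio of 0.521 (interval 0.485 to 0.560). Ndufa12, which joins late in assembly, stood at 21.9 RPKM in heart and 39.4 RPKM in bone marrow, a log2 ratio of -0.82. Ndufa4 stood at 37.3 RPKM in heart and 56.7 RPKM in bone marrow, a log2 ratio of -0.59 that lies just past 1.5-fold. In the other direction, Ndufa6, a subunit that holds the mitochondrial acyl carrier protein, stood at 55.8 RPKM in heart and 36.2 RPKM in bone marrow, a log2 ratio of 0.61 and a ratio of 1.54 (interval 1.39 to 1.71). Ndufv3, an accessory subunit beside the flavin site, came next at 21.3 RPKM in heart and 14.6 RPKM in bone marrow, with a log2 ratio of 0.51 that stayed within 1.5-fold.

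Ndufa4l2 was the member with the widest gap. It is a paralogue of Ndufa4 known as a target of hypoxia-inducible factor that lowers mitochondrial oxygen use, and not a standing part of complex I. It lies on chromosome 10 from 127514939 to 127517152 on the plus strand. Its level was 6.78 RPKM in heart and 0.637 RPKM in bone marrow, from at least 422 reads in heart and at least 33 in bone marrow. The log2 ratio was 2.25 and the plain ratio 10.6, with an interval of 7.46 to 15.7. Its paralogue Ndufa4 was higher than Ndufa4l2 in both libraries, by 5.51-fold per length in heart and 89.0-fold in bone marrow. Its gene model shares 32 exon bases with Shmt2 on the other strand, and the use of strand in counting is not given in the sources used here. Shmt2 differed the opposite way, at 30.2 RPKM in heart and 67.7 RPKM in bone marrow.

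**Figure D2:**
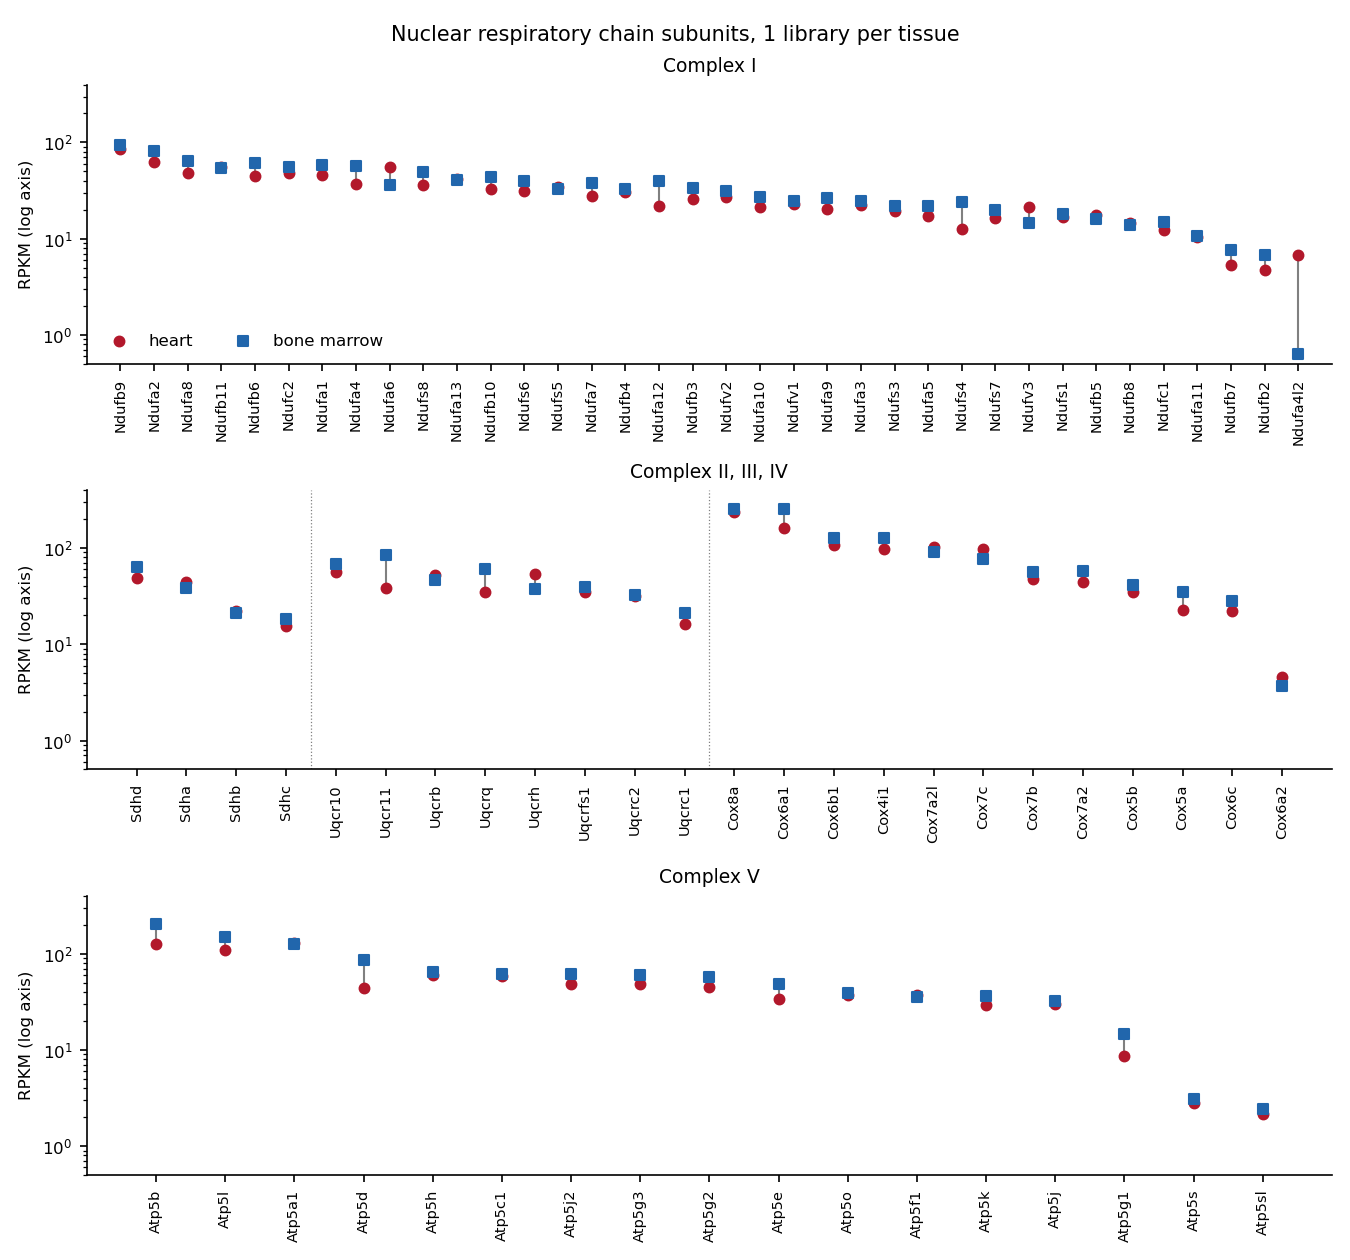
Nuclear members at or above 1 RPKM, with 1 complex I member not shown, are given by their RPKM in heart (red circles) and bone marrow (blue squares) on a log axis, ordered within each complex by the mean of both libraries. The circle lies under the square for most genes, and the widest gap is that of Ndufa4l2, at 6.78 RPKM in heart and 0.637 RPKM in bone marrow.

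Complex II, which also works in the citric acid cycle, had a median log2 ratio of -0.08 over 4 members, 2 of them below 0 and none called at 1.5-fold. Its direction depends on the scaling, since the median was above 0 under 4 of 5 other scalings. The catalytic pair was slightly higher in heart. Sdha, the flavoprotein, stood at 44.1 RPKM in heart and 38.8 RPKM in bone marrow (log2 ratio 0.18), and Sdhb, the iron-sulfur protein, at 22.4 RPKM in heart and 21.0 RPKM in bone marrow (0.09). The membrane anchors were lower in heart. Sdhc stood at 15.4 RPKM in heart and 18.4 RPKM in bone marrow (-0.24), and Sdhd at 48.5 RPKM in heart and 64.0 RPKM in bone marrow (-0.39). The counting intervals of the ratio lay above 1 for Sdha and Sdhb, with lower limits of 1.11 and 1.01, and below 1 for Sdhc and Sdhd, with upper limits of 0.878 and 0.792.

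Complex III, with 8 nuclear members, had a median log2 ratio of -0.23 and spread widely. Uqcr11, the smallest subunit of the complex (chromosome 10, 80402997 to 80406830, minus strand), stood at 38.0 RPKM in heart and 83.9 RPKM in bone marrow, from 1581 and 2904 reads. Its log2 ratio was -1.12 and its ratio 0.453 (interval 0.426 to 0.482). Uqcrq, a small subunit near the ubiquinone-binding region, stood at 34.8 RPKM in heart and 60.3 RPKM in bone marrow, a log2 ratio of -0.78. Uqcrh, the hinge protein that helps cytochrome c1 meet cytochrome c, went the other way at 53.2 RPKM in heart and 37.7 RPKM in bone marrow, a log2 ratio of 0.49 and a ratio of 1.41 (interval 1.34 to 1.48). By RPKM the most abundant member on average was Uqcr10, at 56.2 RPKM in heart and 68.9 RPKM in bone marrow, and the least abundant was the core protein gene Uqcrc1, at 16.3 RPKM in heart and 20.9 RPKM in bone marrow. Per length of the principal transcript these ranks changed, with Uqcrfs1 lowest in both libraries, Uqcrh highest in heart and Uqcr11 highest in bone marrow. Uqcr11 and Uqcrh, at log2 ratios of -1.12 and 0.49, were the extremes of the 8 nuclear members. Relative to the median of chromosome 10, itself -0.56, Uqcr11 stood at -0.56, and Uqcrh stood at 0.50 relative to that of chromosome 4.

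Complex IV had 18 nuclear members, of which 12 reached 1 RPKM, with a median log2 ratio of -0.26 over those 12. The isoforms made in most tissues carried nearly all of its RNA in both libraries. Cox8a was the most abundant, at 236.7 RPKM in heart and 254.6 RPKM in bone marrow. Cox6a1, the common form of subunit VIa, stood at 163 RPKM in heart and 253.6 RPKM in bone marrow, and its log2 ratio of -0.63 was the only call of the complex. Cox5a, which carries no isoform partner, stood at 22.8 RPKM in heart and 34.6 RPKM in bone marrow (log2 ratio -0.58). It missed the 1.5-fold call with the pseudocount of 1 and met it with a pseudocount of 0.1, which gave 10 members higher in bone marrow in place of 9. Among members at or above 1 RPKM, Cox7c was furthest toward heart, at 96.7 RPKM in heart and 76.1 RPKM in bone marrow, with a log2 ratio of 0.34 and a ratio of 1.27 (interval 1.23 to 1.32).

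Of the isoforms known from striated muscle, lung and testis, 6 were below 1 RPKM in both libraries. Cox6a2, the heart and skeletal muscle form, was above that level, at 4.60 RPKM in heart and 3.68 RPKM in bone marrow, while Cox6a1 was 35.4-fold higher per length than it in heart and 69.0-fold higher in bone marrow. Cox7a1, the muscle form of subunit VIIa, stood at 0.115 RPKM in heart and 0.242 RPKM in bone marrow, from 4 and 7 reads, against 44.0 RPKM in heart and 58.3 RPKM in bone marrow for the common form Cox7a2. Cox8b, the muscle form of subunit VIII, had 9 reads in heart and 0 in bone marrow. The lung form Cox4i2 had 2 reads in heart and 0 in bone marrow, while its partner Cox4i1 stood at 98.4 RPKM in heart and 127.4 RPKM in bone marrow. The testis form Cox6b2 had 10 reads in heart and 0 in bone marrow, against 106.4 RPKM in heart and 128.6 RPKM in bone marrow for Cox6b1. Cox7b2 and Cox8c, both known from testis, were listed at 0 in both libraries, and Cox7b stood at 47.5 RPKM in heart and 56.3 RPKM in bone marrow. Cox7a2l, which helps join complexes III and IV into supercomplexes, stood at 102.2 RPKM in heart and 91.6 RPKM in bone marrow (log2 ratio 0.16). The 10 cardiomyocyte markers summed to 0.854 RPKM in heart and 0.976 RPKM in bone marrow, and Nkx2-5 was listed at 0 in both.

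ATP synthase, with 17 nuclear members, had a median log2 ratio of -0.31, and 15 of 17 members were below 0. This was the lowest nuclear median with all members counted. Without the members on chromosome 10 it was -0.12, above -0.26 in complex IV, -0.23 in complex I and -0.17 in complex III. That -0.12 is the value of Atp5s, and the next member below it was Atp5g3 at -0.31. The order of complexes without chromosome 10 thus depends on counting Atp5s and Atp5sl, which are not regarded as standing subunits. Atp5b, the catalytic beta subunit and the most abundant member by the mean of both libraries, stood at 126.3 RPKM in heart and 201.4 RPKM in bone marrow, a log2 ratio of -0.67 from 34721 and 46089 reads. Its partner in the catalytic head, the alpha subunit gene Atp5a1, stood at 127.6 RPKM in heart and 126.5 RPKM in bone marrow (log2 ratio 0.01). Atp5b lies on chromosome 10 and stood at -0.11 relative to the median there, and Atp5a1 stood at 0.14 relative to that of chromosome 18. Atp5d, part of the rotating central stalk (plus strand of chromosome 10, 80138632 to 80145818), was measured at 44.3 RPKM in heart and 85.9 RPKM in bone marrow, a log2 ratio of -0.94 and a ratio of 0.515 (interval 0.498 to 0.533). Atp5f1, a subunit of the peripheral stalk, was the member furthest toward heart, at 36.8 RPKM in heart and 35.7 RPKM in bone marrow. The lowest was Atp5sl, at 2.18 RPKM in heart and 2.43 RPKM in bone marrow.

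Atp5g1, Atp5g2 and Atp5g3 encode one and the same mature protein, the c subunit of the rotor ring, behind different import sequences. Atp5g1 stood at 8.56 RPKM in heart and 14.5 RPKM in bone marrow (log2 ratio -0.69). Atp5g2 stood at 45.1 RPKM in heart and 57.7 RPKM in bone marrow (-0.35), and Atp5g3 at 47.9 RPKM in heart and 59.5 RPKM in bone marrow (-0.31). All 3 were lower in heart, and the order of the copies was the same in both libraries.

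Levels of genes within a complex differed far more than the libraries did. RPKM divides by all exon bases of a gene, which understates genes with long minor transcripts. Levels were therefore also set per length of the principal transcript where that could be done, taking the longest where several ranked alike. On that scale the 21 such members of the complex I group spanned 13.9-fold in heart and 14.9-fold in bone marrow, with Ndufb2 lowest and Ndufa4 highest in both. Ndufa4 is in this group by name only, and Ndufb9, the most abundant by RPKM, is not among the 21. The 8 members of complex III spanned 3.44-fold in heart and 3.07-fold in bone marrow. In complex V the 12 such members spanned 31.3-fold in heart and 29.5-fold in bone marrow, between Atp5g1 at the low end and Atp5b at the high end. The low ends may depend on the choice of the longest transcript. It gave 4371 bases for Ndufb2 and 4715 for Atp5g1, beside 731 for Atp5g2 and 723 for Atp5g3. What a shorter transcript would give was not tested.

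The 13 mitochondrial genes were far more abundant than the nuclear ones and were lower in heart in 12 of 13 cases. With the median ratio of abundant genes set to 0, 10 of 13 were lower, since mt-Co1 and mt-Cytb then had log2 ratios of 0.04 and 0.04. Together they held 25707 RPKM, 9.74% of all RPKM, in heart and 31977 RPKM, 11.4%, in bone marrow, a ratio of 0.804. Their median log2 ratio was -0.35, and none was called at 1.5-fold. The median mitochondrial subunit of complex I stood 41.8-fold above the median nuclear one in heart and 42.3-fold in bone marrow, and in complex IV the same figure was 53.7-fold in heart and 73.5-fold in bone marrow. How RNA was selected for the libraries is not stated beyond total RNA, and 24 of 24 rows for mitochondrial ribosomal and transfer RNA were listed at 0 in both libraries.

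The complex IV genes and mt-Atp6 were the most abundant. The catalytic subunit gene mt-Co1 stood at 4264 RPKM in heart and 4608 RPKM in bone marrow, a log2 ratio of -0.11. The copper-binding subunit gene mt-Co2 stood at 3856 RPKM in heart and 5224 RPKM in bone marrow (-0.44), and mt-Co3 at 3870 RPKM in heart and 4937 RPKM in bone marrow (-0.35). These 3 genes, read from one strand, thus did not share a ratio between these libraries. Counting intervals at this depth were narrow, with limits of 0.921 and 0.929 for mt-Co1 and 0.733 and 0.743 for mt-Co2. They do not cover differences between cultures or library preparations. The cytochrome b gene mt-Cytb, the single mitochondrial gene of complex III, stood at 2445 RPKM in heart and 2629 RPKM in bone marrow (-0.10).

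The mitochondrial complex I genes form the membrane arm that pumps protons. Among them mt-Nd1 had the lowest ratio, at 1921 RPKM in heart and 2704 RPKM in bone marrow (log2 ratio -0.49). mt-Nd2 stood at 1083 RPKM in heart and 1390 RPKM in bone marrow (-0.36), and mt-Nd3 at 1078 RPKM in heart and 1408 RPKM in bone marrow (-0.38). The complex I genes further along the same strand than mt-Nd3 were nearer to even. mt-Nd4 stood at 1555 RPKM in heart and 1768 RPKM in bone marrow (-0.19), and mt-Nd5 at 897.5 RPKM in heart and 1028 RPKM in bone marrow (-0.20). mt-Nd6, the single protein gene on the other strand, stood at 480.7 RPKM in heart and 614.3 RPKM in bone marrow (-0.35). mt-Nd4l, the only one at or above 0, stood at 497.8 RPKM in heart and 484.1 RPKM in bone marrow (0.04), and its counting interval of 0.998 to 1.06 took in 1.

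Some mitochondrial genes overlap as pairs and are known to stay together on one messenger RNA. The ATP synthase genes mt-Atp8 and mt-Atp6 share 43 bases, shown here because a read inside them belongs to both genes. Capitals mark the start codon of mt-Atp6 at one end and the stop codon of mt-Atp8 at the other (GRCm38, chrMT:7927-7969, plus strand).
mt-Atp8 and mt-Atp6 overlap: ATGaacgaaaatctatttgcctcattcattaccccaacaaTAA
mt-Atp6 stood at 3344 RPKM in heart and 4720 RPKM in bone marrow (log2 ratio -0.50), whereas mt-Atp8 stood at 413.8 RPKM in heart and 463.1 RPKM in bone marrow (-0.16). Per length, mt-Atp6 was 8.08-fold above mt-Atp8 in heart and 10.2-fold in bone marrow. In the other pair, which shares 7 bases, mt-Nd4 was 3.12-fold above mt-Nd4l in heart and 3.65-fold in bone marrow. In both pairs the short upstream gene, of 204 and 297 bases, was the lower one and had the ratio nearer to even. How the counting treated reads on shared bases or near gene ends is not given in the sources used here, and its part in these values was not tested.

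**Figure D3:**
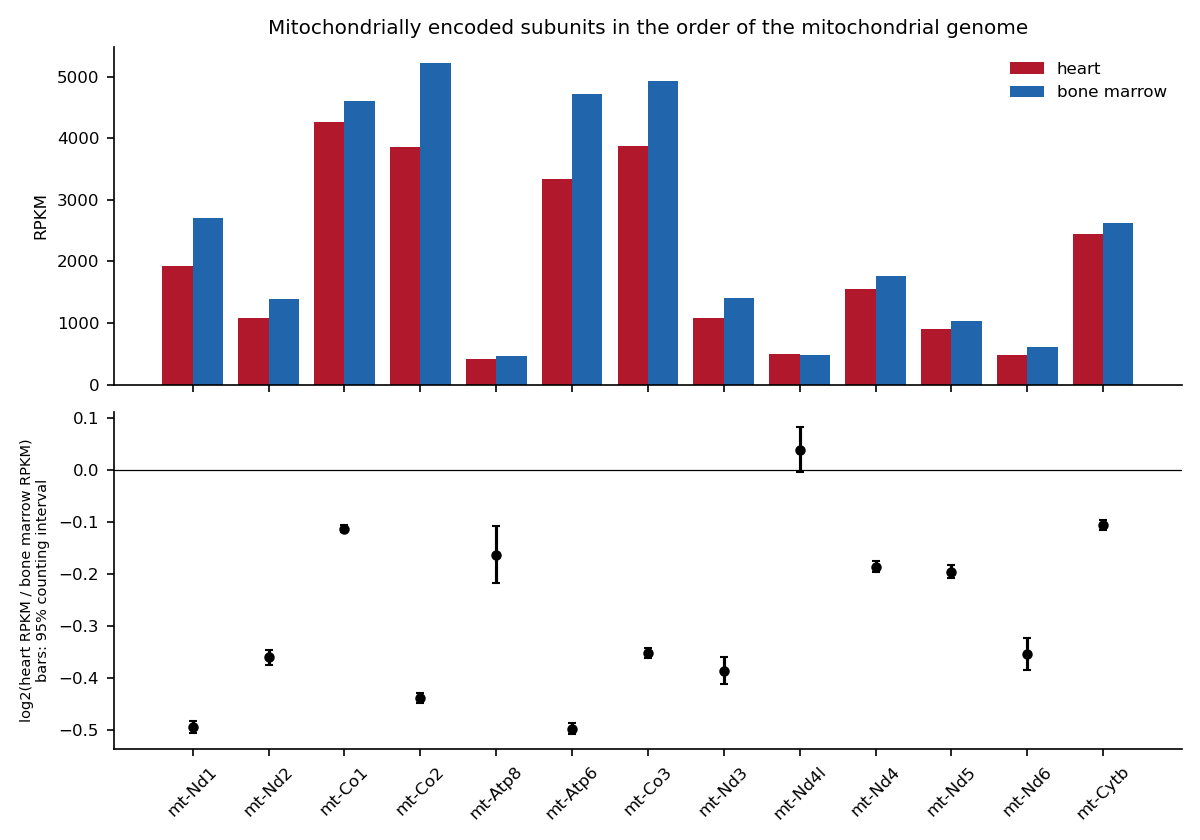
The 13 mitochondrial genes are placed in genome order, with RPKM in heart (red bars) and bone marrow (blue bars) above and log2(heart RPKM/bone marrow RPKM) with 95% counting intervals below. The log2 ratios lie between -0.50 (mt-Atp6) and 0.04 (mt-Nd4l), and the complex IV genes and mt-Atp6 are the tallest bars.

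Ratios differed by chromosome. Chromosome 10 had the lowest median log2 ratio of the 20 chromosomes with at least 100 genes, -0.56 over 322 genes with at least 5 RPKM in each library. The next was chromosome 12 at -0.40, and the other medians ran from -0.21 to 0.01. Along chromosome 10 the medians were alike, at -0.58, -0.57 and -0.55 in 3 successive stretches. Of the 9 members called higher in bone marrow at 1.5-fold, 4 lie on chromosome 10: Uqcr11, Atp5d, Ndufa12 and Atp5b. That is 4 of the 6 members there (66.7%), beside 48.8% of all chromosome 10 genes tested. Of the 69 nuclear members elsewhere at or above 5 RPKM, 5 were called higher in bone marrow (7.25%), beside 18.8% of all genes elsewhere. The sixth member on the chromosome, Ndufs7, a core subunit of complex I, stood at 16.3 RPKM in heart and 19.9 RPKM in bone marrow (log2 ratio -0.27).

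Relative to the median of its own chromosome, Uqcr11 stood at -0.56, Atp5d at -0.38, Ndufa12 at -0.26 and Atp5b at -0.11 on the log2 scale, none of them past 1.5-fold. With chromosome medians taken off, 2 members were called higher in bone marrow (2.27%, Ndufs4 and Uqcrq), beside 14.3% of all genes. In the same way 3 members were called higher in heart (3.41%, Ndufa4l2, Ndufa6 and Ndufv3), beside 16.3% of all genes. These shares count the 13 mitochondrial members, whose chromosome median is their own. Of the 75 nuclear members alone, 2.67% were called higher in bone marrow and 4% in heart. Ndufs4 on chromosome 13 stood at -0.90 relative to its chromosome and Uqcrq on chromosome 11 at -0.61. Why chromosome 10 genes were lower in heart cells was not tested.

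**Figure D4:**
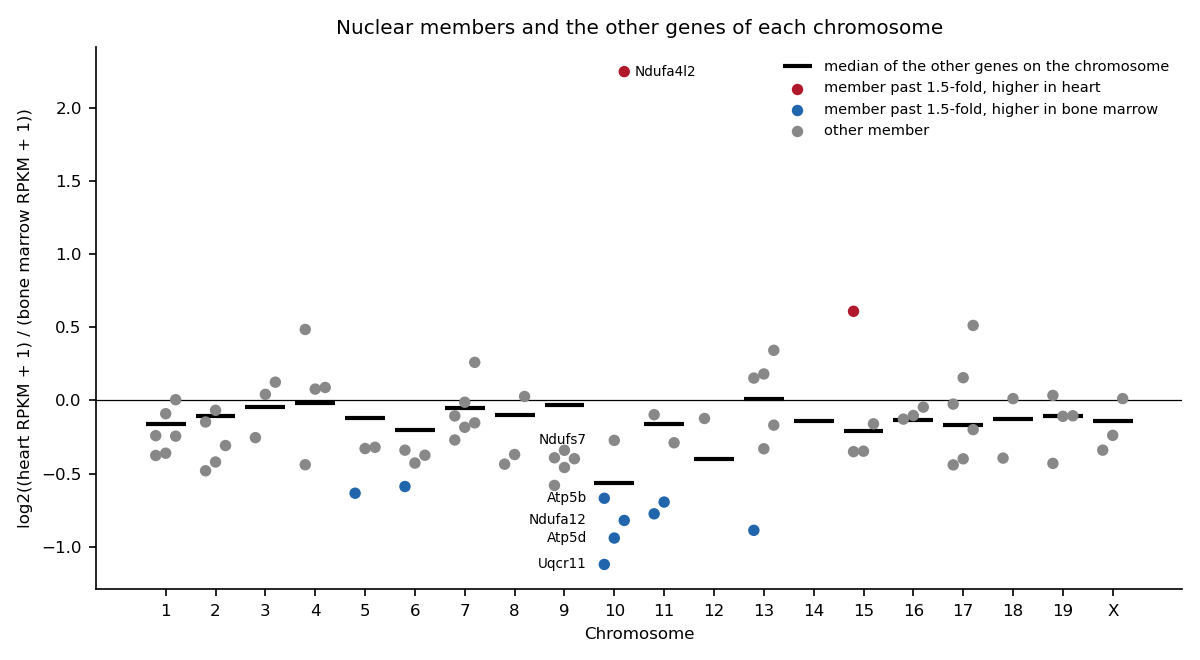
Points are nuclear members at or above 1 RPKM by chromosome, with log2((heart RPKM + 1)/(bone marrow RPKM + 1)) on the vertical axis, and black bars are the median of the other genes of each chromosome. Chromosome 10 has the lowest bar, near -0.56, and 4 of the 9 members called higher in bone marrow lie on it.

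Promoters were read for 69 of the 84 nuclear members, as windows from 250 bases before to 50 bases after the gene start in RefSeq (GRCm38.p6). Nuclear respiratory factors and a few other regulators are known to bind many of these genes. Both strands were searched for fixed letters, and a match is a description of the sequence, not a bound site. Of the called members, Ndufa4l2 and Uqcrq were not among the 69 searched. The NRF1 letters GCATGCGC were in 10 of 69 members (14.5%), beside 3.05% of 27025 genes. Those 27025 genes were not limited to genes expressed in these cells, and a gene counted when any of its windows matched. The GABP letters CCGGAAG were in 16 (23.2%), beside 9.93% of genes, and the YY1 letters AAGATGGC in 11 (15.9%), beside 3.19%. The ERR letters AAGGTCA were in 8 (11.6%), beside 5.38%, and the HIF letters ACGTG in 19 (27.5%), beside 21.8%. The SP1 letters GGGCGG were in 28 (40.6%), beside 38.2%, and the TATA letters TATAAA in 7 (10.1%), beside 15.7%. None of these 7 motifs holds another within its letters.

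Median ratios of members with and without the letters were set side by side. Members with the NRF1 letters had a median log2 ratio of -0.34 (10 genes at or above 1 RPKM), beside -0.25 without them (55 genes), and those with the GABP letters -0.36 (16 genes) beside -0.25 (49 genes). Members with the HIF letters had -0.34 (17 genes) and those without -0.26 (48 genes). For YY1 the medians were -0.25 with the letters and -0.30 without, and for SP1 -0.27 with and -0.27 without. For ERR they were -0.36 with and -0.25 without, and for TATA -0.44 with (5 genes) and -0.26 without. The promoters of Uqcr11 and Ndufa6 are shown because both hold the NRF1 letters while their genes had log2 ratios of -1.12 and 0.61. Capitals mark the matches to the motifs above. The Uqcr11 window is chr10:80406772-80407071 on the minus strand, with HIF, GABP and NRF1 letters beginning 196, 66 and 4 bases before the start. The Ndufa6 window is chr15:82354242-82354541 on the minus strand, with NRF1 letters beginning 83 bases before the start and SP1 letters 42 bases after it.
Uqcr11: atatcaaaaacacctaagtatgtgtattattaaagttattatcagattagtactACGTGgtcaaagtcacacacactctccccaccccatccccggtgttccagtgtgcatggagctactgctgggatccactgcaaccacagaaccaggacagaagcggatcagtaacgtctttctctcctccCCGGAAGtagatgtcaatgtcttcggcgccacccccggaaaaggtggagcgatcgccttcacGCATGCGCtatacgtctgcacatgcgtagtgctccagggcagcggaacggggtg
Ndufa6: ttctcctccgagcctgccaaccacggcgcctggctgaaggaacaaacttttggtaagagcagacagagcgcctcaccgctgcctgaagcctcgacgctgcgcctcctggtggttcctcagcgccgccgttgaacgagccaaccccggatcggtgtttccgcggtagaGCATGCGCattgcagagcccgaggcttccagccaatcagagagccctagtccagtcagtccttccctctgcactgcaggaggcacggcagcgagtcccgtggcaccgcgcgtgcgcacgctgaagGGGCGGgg

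The genes that build and serve the chain were read beside the members from lists of assembly factors, carriers, regulators and other mitochondrial proteins. Their calls at 1.5-fold are counted among genes at or above 5 RPKM, where 20.4% of all genes were called higher in bone marrow and 13.0% higher in heart. The 15 complex I assembly factors had a median log2 ratio of -0.31, with 1 of 7 (14.3%) called higher in bone marrow, Ndufaf4, at 4.30 RPKM in heart and 7.04 RPKM in bone marrow. The 14 assembly factors of complexes II, III and V, 12 of them at or above 1 RPKM, had a median of -0.20 and 1 such call of 8 (12.5%), the ATP synthase factor Tmem70, at 14.5 RPKM in heart and 27.7 RPKM in bone marrow. The 23 complex IV assembly factors, 22 of them at or above 1 RPKM, had a median of -0.25 and 2 such calls of 14 (14.3%). These were Coa3, at 20.8 RPKM in heart and 32.9 RPKM in bone marrow, and Higd1a, a hypoxia-induced protein of the inner membrane, at 8.34 RPKM in heart and 17.1 RPKM in bone marrow. No assembly factor was called higher in heart.

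The list of cytochrome c, ubiquinone synthesis and subunits outside the name rule had a median of -0.25 over 16 genes and 2 calls of 11 (18.2%) higher in bone marrow, near the share of all genes. Cycs, the electron carrier between complexes III and IV, stood at 13.0 RPKM in heart and 26.0 RPKM in bone marrow, a log2 ratio of -0.95. Coq3, an enzyme of ubiquinone synthesis, stood at 2.15 RPKM in heart and 5.03 RPKM in bone marrow. The list of mitochondrial DNA expression had a median of -0.24 over 19 genes and 2 such calls of 10 (20.0%), again near that share. They were the mitochondrial RNA polymerase gene Polrmt, on chromosome 10, at 3.74 RPKM in heart and 7.11 RPKM in bone marrow, and Fastkd5, at 2.89 RPKM in heart and 5.69 RPKM in bone marrow. No gene of these lists was called higher in heart.

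The regulators of nuclear respiratory genes were the single list with a median above 0, at 0.08 over 10 genes of which 5 were below 0, and 4 of its 14 genes were under 1 RPKM in both libraries. Myc, a growth regulator that also acts on mitochondrial genes, was its only call of 7 (14.3%), at 6.00 RPKM in heart and 22.6 RPKM in bone marrow, a log2 ratio of -1.75. Esrra, an orphan receptor acting with PGC-1 coactivators, stood at 8.49 RPKM in heart and 6.94 RPKM in bone marrow. Gabpa, a subunit of GABP, stood at 14.9 RPKM in heart and 12.7 RPKM in bone marrow. Others lay on the lower side in heart within 1.5-fold, among them Yy1 at 23.7 RPKM in heart and 27.2 RPKM in bone marrow and Nrf1 at 2.69 RPKM in heart and 2.80 RPKM in bone marrow.

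The citric acid cycle list had a median of -0.30 over 14 genes, with 4 of 14 (28.6%) called higher in bone marrow at 1.5-fold, beside 20.4% of all genes, and 0 called higher in heart, beside 13.0%. Cs, citrate synthase, on chromosome 10, stood at 50.8 RPKM in heart and 80.9 RPKM in bone marrow, and Dlst, of the oxoglutarate dehydrogenase complex, on chromosome 12, at 31.7 RPKM in heart and 59.5 RPKM in bone marrow. The membrane, import and chaperone list had the lowest median, -0.58 over 19 genes, with 9 of 19 (47.4%) called higher in bone marrow, beside 20.4% of all genes. No test of that difference was made. Phb, prohibitin, stood at 20.5 RPKM in heart and 38.3 RPKM in bone marrow, and Timm23, the inner membrane import channel, at 38.2 RPKM in heart and 62.6 RPKM in bone marrow. Against that direction, the outer membrane channel gene Vdac2 stood at 58.5 RPKM in heart and 39.7 RPKM in bone marrow, a log2 ratio of 0.55 within 1.5-fold. The 78 mitochondrial ribosomal proteins had a median of -0.34, with 72 of 78 below 0. Of the 67 at or above 5 RPKM, 14 (20.9%) were called higher in bone marrow at 1.5-fold, close to the 20.4% of all genes, and 1 (1.49%) was higher in heart, beside 13.0%. Mrpl54 and Mrpl42, both on chromosome 10, were past 2-fold with log2 ratios of -1.22 and -1.03, and Mrps6 was the heart call, at 38.3 RPKM in heart and 24.6 RPKM in bone marrow.

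**Figure D5:**
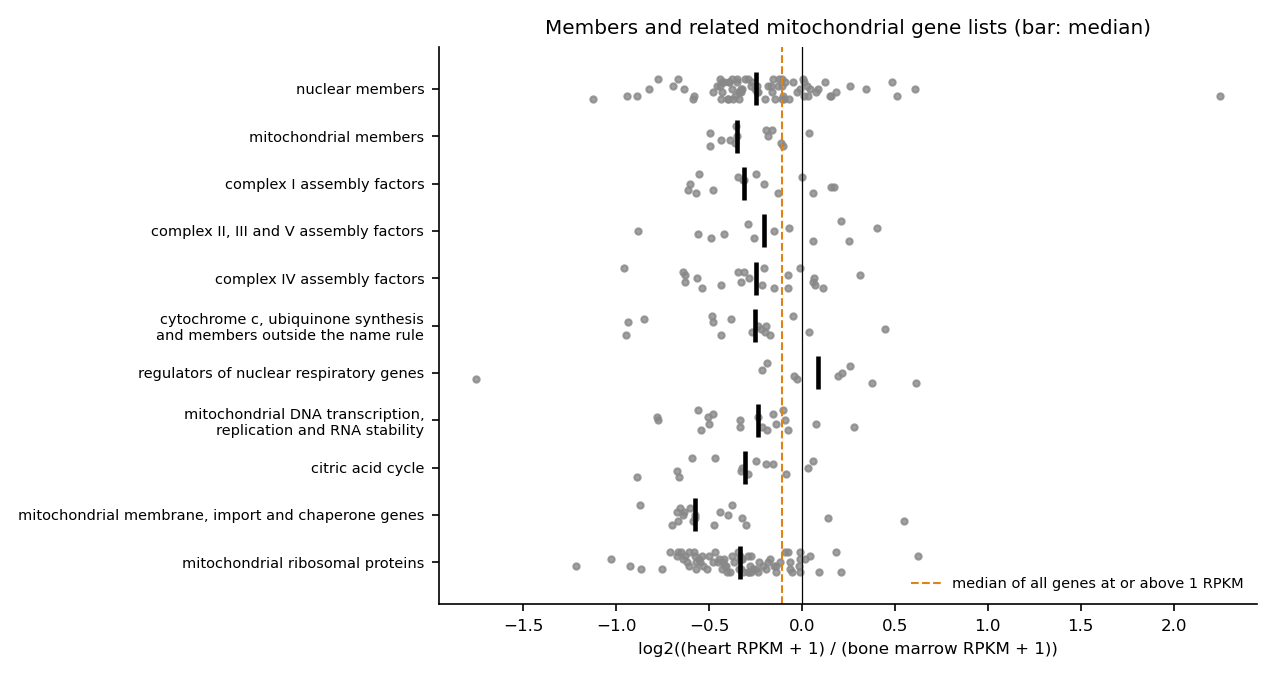
Each point is a gene at or above 1 RPKM in a list, on log2((heart RPKM + 1)/(bone marrow RPKM + 1)), with black bars at list medians and a dashed line at the all-gene median of -0.11. Medians run from -0.58 for membrane, import and chaperone genes to 0.08 for the regulators, with nuclear members at -0.25 and mitochondrial members at -0.35.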

How the data were processed

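RNA-seq of 1 heart and 1 bone marrow culture of Nestin+ cells was used. The authors deposited RPKM per gene row, per the file headers, with chromosome and region. Aligner, counter and strandedness are not given in the sources. Per the submitters' processing notes the build is mm8, yet 45149 rows (91.1%) lie exactly at GENCODE M21 gene models on GRCm38, on which coordinates are given.

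Reads were recovered as RPKM times exon length times library total, and 12292 of 14255 genes (86.2%) came out whole in both libraries within 0.02 reads. For 71 members reads rest on a matching model. For 25 the smallest length from 150 bases that gives whole reads (tolerance 0.001) was taken, so reads are minimums and intervals may be too wide. Since no molecular identifiers are recorded, reads cannot be taken as independent molecules. No count model was fitted.

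Rows sharing a symbol were represented by the higher one, leaving 49490 symbols. Medians cover genes at or above 1 RPKM in either library, with a pseudocount of 1, and folds of low genes are understated. Chromosome medians use genes with at least 5 RPKM in each library. With 1 library per tissue no test was possible, so neither p-values nor standard errors are given. Of the nuclear members, 29 share exon bases with another gene model, so their reads may be mixed with those of that gene.

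The named genes are all mitochondrial members, all of complex II, all isoform pairs, all calls, and the extremes of level and ratio per complex, with up to 3 genes each way per list. Ndufs1, Ndufs3, Ndufs8, Ndufv1, Ndufv2, Ndufv3, Ndufs7, Cox5a, Atp5a1, Nes, Ptprc, Cd53, Lyz2, Eng, Thy1, Dio2, Nkx2-5, Nrf1 and Shmt2 were added after their values were seen. Values of 1 nuclear member are not reported here, though it is counted. Members and lists were chosen with earlier results of these data known. Alternatives were other pseudocounts, floors, filters and scalings, summed rows, and a changed membership; those on chromosome 10, principal transcript length and smallest length were chosen after seeing the data. Calculations were tested on simulated data and ran under Python 3.11.15 with scipy 1.17.1, pandas 2.3.3, numpy 2.4.6 and, for plots, matplotlib 3.10.9.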

Additional observations from a re-analysis of the deposited data

How the results depend on the processing

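No paired analysis was possible because each tissue has 1 library. Nuclear and mitochondrial medians and ratios of sums kept their direction under every scaling tried, except that the complex II median was above 0 under 4 of 5, at 0.064, 0.0047, 0.011 and 0.056. Without chromosome 10 the complex V median was -0.12, the value of Atp5s, with Atp5g3 next below at -0.31. Setting the median ratio of genes at or above 5 RPKM to 0 adds 0.15 to log2 ratios, and the nuclear median became -0.11 (complex I -0.12), with 50 of 78 nuclear members below 0. It left 0 members 2-fold higher in bone marrow and at 1.5-fold gave 4 calls toward heart and 5 toward bone marrow. Equal RPKM sums with the mitochondrial genes and the top 20 genes left out gave the same counts of 0, 4 and 5 and a nuclear median of -0.12 (complex I -0.12). Cox6a1, Ndufa4, Atp5g1 and Atp5b lost their call under both, while Ndufv3 and Uqcrh gained one toward heart.

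The ratios of sums (nuclear, then mitochondrial) were 0.924 and 0.891 with the median ratio at 0, 0.885 and 0.854 with equal upper quartiles, 0.876 and 0.845 with the trimmed mean, 0.889 and 0.858 with equal RPKM sums and 0.919 and 0.886 without the abundant genes. The mitochondrial one was 0.797 without mt-Co1, mt-Co2 and mt-Co3. A pseudocount of 5 left 1 member 1.5-fold higher in heart, and a floor of 20 RPKM left 0 at 2-fold and 1 at 1.5-fold there, since Ndufa4l2 lies under it. Without chromosome 10, 0 members were 2-fold apart in either direction, and the 1.5-fold calls were 1 toward heart and 5 toward bone marrow. With the chromosome median taken off, 2 were higher in bone marrow. Beyond alternatives that leave out genes by construction, the cause was not tested. Of 192 values of 24 named members under alternatives, 108 moved by more than counting error. No call was reversed, which these alternatives could not have done. Scalings added at most 0.15 to log2 ratios, against at least 0.58 for a call, and another pseudocount keeps the sign. The uncalled mt-Co1 and mt-Cytb turned to 0.04 and 0.04, and to 0.03 and 0.04, under 2 scalings. A single library per tissue cannot show how far cultures of one tissue differ.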
